A study of Mus musculus with 8 samples.

Results

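The genes described here are 7 CC chemokines (Ccl2, Ccl3, Ccl4, Ccl5, Ccl6, Ccl7 and Ccl9) and the receptors Ccr1 and Ccr2. They were taken by name: every array probe annotated to one of these symbols was included, which gave 10 probes of 25697 and 9 genes of the 16593 on the array. Ccl4 had 2 probes and each other gene had 1. The samples were Gr1+ splenocytes of female C57BL/6 mice aged 6 to 8 weeks, pooled over several spleens and isolated magnetically, and their transcripts were read on Illumina MouseRef-8 v2 bead chips. Gr1 is an epitope carried by granulocytes and by some monocytes.

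Mice of the LPS group (3 arrays) received lipopolysaccharide, the endotoxin of gram-negative bacteria, into the peritoneum and PBS 30 min later. Mice of the LT group (3 arrays, as named in the sample titles) received LPS and then HY209, which is sodium taurodeoxycholate, a bile salt, by the intravenous route. Mice of the PBS group (2 arrays, numbered 1 and 3) received neither agent. Spleens were taken at 48 h in all groups. No group received HY209 alone, doses are not given in the sources used here, and the labels name no engineered allele. The labels give pools of 10 to 15 spleens repeated for each sample, while the design text gives 30 to 40, so p-values here measure the spread between arrays.

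CC chemokines are small secreted proteins, named for a pair of adjacent cysteines, that bind G protein-coupled receptors on leukocytes and direct their migration. Ccl2 and Ccl7 act on Ccr2, which lets monocytes leave the bone marrow during infection. Ccl3, Ccl5 and the rodent chemokines Ccl6 and Ccl9 act on Ccr1. Macrophages, neutrophils and activated lymphocytes secrete several of them after endotoxin.

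All 7 chemokine genes lie on mouse chromosome 11, in a pair of clusters. In the RefSeq annotation of GRCm38.p6, Ccl2 and Ccl7 are neighbours in one cluster, and the order in the other is Ccl5, Ccl9, Ccl6, Ccl3, Ccl4. Promoter sequences from RefSeq (GRCm38.p6) matched 5 of the 9 members. Those of 3 neighbours are shown because Ccl3 rose steeply after LPS while Ccl6 and Ccl9 fell, as the values given later show. Each is the 250 bases before the annotated start, on the minus strand, at chr11:83649379-83649628 for Ccl3, chr11:83593088-83593337 for Ccl6 and chr11:83578637-83578886 for Ccl9. Capitals mark matches to the searched motifs.
Ccl3: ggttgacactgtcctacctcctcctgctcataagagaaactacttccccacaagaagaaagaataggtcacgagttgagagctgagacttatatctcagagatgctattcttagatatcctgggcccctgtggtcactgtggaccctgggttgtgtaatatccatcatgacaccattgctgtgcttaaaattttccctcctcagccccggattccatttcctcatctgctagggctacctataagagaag
Ccl6: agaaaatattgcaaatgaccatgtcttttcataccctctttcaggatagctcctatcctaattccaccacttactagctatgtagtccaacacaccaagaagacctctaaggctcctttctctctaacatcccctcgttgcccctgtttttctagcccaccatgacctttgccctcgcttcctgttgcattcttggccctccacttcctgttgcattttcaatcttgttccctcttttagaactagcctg
Ccl9: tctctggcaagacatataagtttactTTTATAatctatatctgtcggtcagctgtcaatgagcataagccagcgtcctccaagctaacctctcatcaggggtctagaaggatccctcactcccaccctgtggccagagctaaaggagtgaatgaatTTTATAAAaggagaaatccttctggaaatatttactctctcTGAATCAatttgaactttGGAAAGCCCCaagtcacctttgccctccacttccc

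The motifs searched, on both strands, were the NF-kB consensus, the AP-1 site TGANTCA, where N is any base, and the TATA box TATAAA. Ccl9 held the NF-kB consensus on the opposite strand from 35 to 26 bases before the start, the AP-1 letters from 53 to 47 bases before it, and the TATA box letters at 3 places, of which 2 overlap each other. Ccl3 and Ccl6 held none of them in this window. Of the matched promoters not shown, that of Ccr1 held the NF-kB consensus from 74 to 65 bases before the start, and that of Ccr2 held none. Over all 32851 promoter windows of the same length, 7.25% held the NF-kB consensus, 6.75% the AP-1 letters and 12.37% the TATA box letters. These matches describe the letters only.

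Each array carried 13015 of 25697 probes (50.6%) above an intensity of 169, the upper bound of background used here. Probes above it on at least 2 of the 8 arrays were tested (14743). Both receptors failed this filter, so 8 probes of 7 chemokines were tested. Ccl2 and Ccl7 passed through their LPS and LT arrays alone, which means that they had to differ from PBS, and counts over the tested members are given as a description. Arrays of one group differed from each other by an SD of 0.16 to 0.24 on the log2 scale, against 0.76 to 0.79 between PBS and LPS arrays, 0.67 to 0.73 between PBS and LT arrays and 0.25 to 0.31 between LPS and LT arrays.

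The labels state that over 95% of the Gr1+ cells carried CD11b, an integrin of myeloid cells that NK cells and some other lymphocytes also carry. Most markers of neutrophils were bright in every group, and markers of other cells were not absent. The summed intensity of 9 neutrophil markers, S100a8 and S100a9 among them, was 250985 and 260049.8 in PBS, 279278 to 288905 in LPS and 274019.7 to 280113 in LT. After LPS 3 of the 9 were higher and 2 lower, and Mmp8 was dim (150.2 ± 6.11 in PBS, where no array was above background). Ly6g, which defines neutrophils, had no probe annotated to its symbol on the array. The sum over 11 macrophage markers was 252865 and 256579 in PBS, 72390.5 to 75739.7 in LPS and 59235 to 64208 in LT. Of 10 tested macrophage markers, 9 were lower after LPS and 5 were lower again in LT than in LPS, while Cd5l was not tested because it was dim. The sum over 10 T and NK cell markers was 48268 and 50389 in PBS, 14844 to 15628 in LPS and 14595 to 20467 in LT. All 6 tested ones were lower after LPS and none differed past the test between LT and LPS, while Cd8a, Cd4, Ncr1 and Gzma were too dim to test. Of 3 tested monocyte markers, Cx3cr1 and F13a1 were lower and Ly6c1 higher after LPS, while Ccr2 and Ms4a4c were below background on all arrays. The sum over 5 was 15054 and 16551 in PBS, 17806 to 18282 in LPS and 18495 to 19674 in LT. Most of that sum was Ly6c1, with means of 9587 in PBS, 15208 in LPS and 16004 in LT. In these mixed samples, fewer cells of a type and less RNA per cell cannot be told apart. The part of other cells in the chemokine results was not tested.

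The comparison of LPS with PBS sets arrays of mice given endotoxin against those of mice given neither agent. Of the 8 chemokine probes tested, 5 (Ccl2, Ccl3, Ccl7 and both of Ccl4) rose, 2 (Ccl6 and Ccl9) fell and Ccl5 did not pass the test. Ccl2 and Ccl7 had to differ through the filter. Among the 6 probes measured in both groups, 3 rose and 2 fell. Of all tested probes, 53.4% passed it, 25.8% upwards and 27.6% downwards. On all 8 chemokine probes, Ccl2 and Ccl7 included, the LPS arrays did not overlap the PBS arrays, as was the case for 69.7% of all tested probes. In what follows, intensities are given as mean ± SD of a group's arrays (n is 2 for PBS and 3 for LPS and for LT), and log2 changes as estimate ± standard error. Intensities are the deposited values, whereas folds and log2 changes, other than folds given as at least a value, follow background correction, so such a fold differs from the ratio of the intensities beside it.

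**Figure D1:**
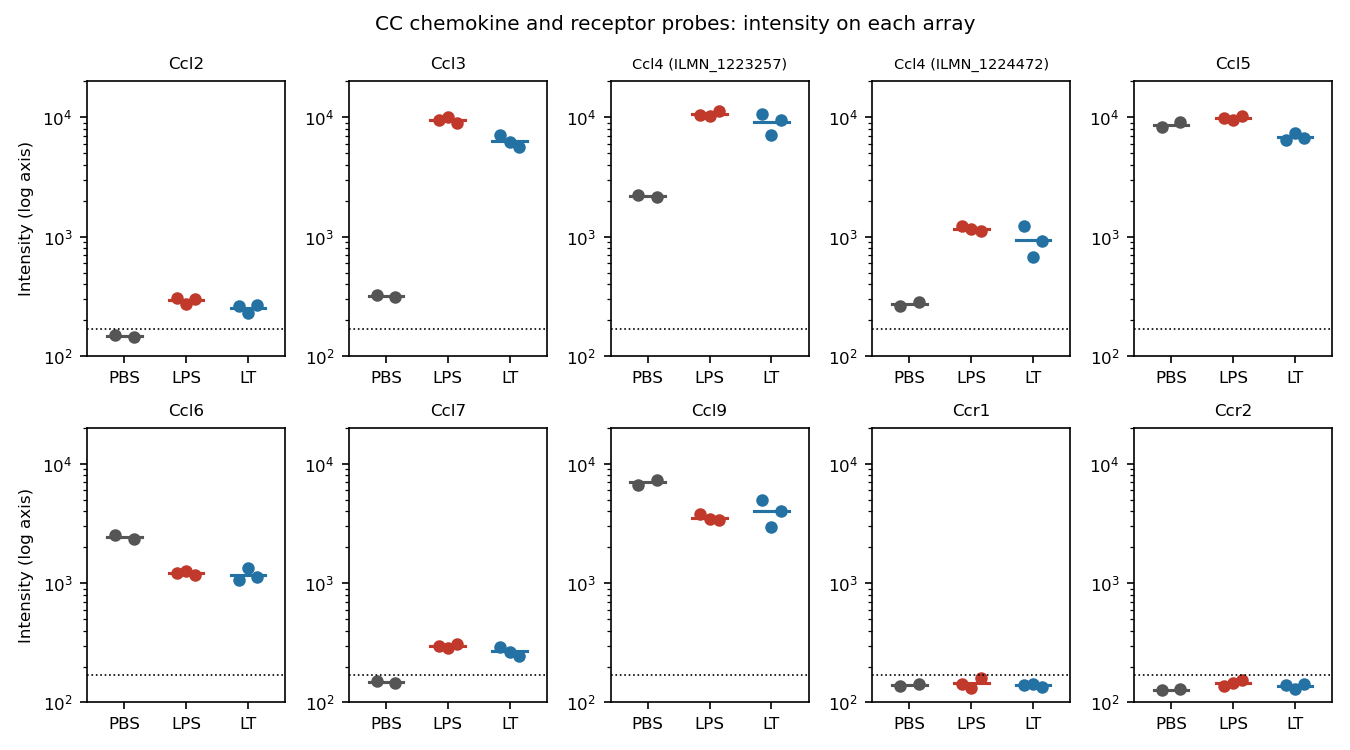
Deposited intensity (log axis) of each of the 10 probes on the 8 arrays, by group, where points are arrays, short lines are group means and the dotted line is the background bound of 169. The LPS and LT points of Ccl3 stand far above PBS, those of Ccl6 and Ccl9 stand below it, and all points of Ccr1 and Ccr2 lie under the dotted line.

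Ccl3, a chemokine of macrophages and neutrophils that attracts monocytes and neutrophils, made the steepest rise of the members. Its probe read 322 and 312 on the PBS arrays, 9475, 10114 and 8992 on the LPS arrays, and 7064, 6279 and 5674 on the LT arrays. The groups did not overlap, with LPS highest, LT between and PBS lowest. After LPS the level was 37.9-fold that of PBS (log2 change 5.25 ± 0.11, 95% confidence interval 5.0 to 5.49, adjusted p = 2.6e-11), the rise ranked 6 among 14743 probes. In LT it was 25.1-fold that of PBS (log2 change 4.65 ± 0.11, adjusted p = 5.4e-11).

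Ccl4, the neighbouring and closely related chemokine, rose with both of its probes. The brighter probe (ILMN_1223257) read 2246 and 2134 on the PBS arrays, 10566, 10216 and 11334 on the LPS arrays, and 10583, 7142 and 9573 on the LT arrays. PBS stood apart from both other groups, which overlapped each other, and LT 2 was the lowest of the LT arrays. The log2 change after LPS was 2.32 ± 0.15 (5.01-fold, adjusted p = 1.0e-07). The dimmer probe (ILMN_1224472) read 264 and 281 in PBS, 1229, 1150.3 and 1119 in LPS, and 1229, 676 and 922 in LT, again with LT 2 lowest. Its log2 change after LPS was 2.42 ± 0.20 (5.36-fold, adjusted p = 1.1e-06), so both probes gave the same direction and a similar size. Against PBS, LT was higher by 2.07 ± 0.15 on the brighter probe (adjusted p = 3.6e-07) and by 2.05 ± 0.20 on the dimmer one (adjusted p = 6.0e-06).

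Ccl2 and Ccl7, the ligands of the monocyte receptor Ccr2, were at background in PBS and detected in every LPS and LT array. Ccl2 read 151 and 145 on the PBS arrays, 308, 272 and 299 on the LPS arrays, and 265, 229.7 and 265 on the LT arrays. Ccl7 read 152 and 146 in PBS, 295, 286 and 310.4 in LPS, and 293, 263 and 247 in LT. Both genes were dim throughout, and their PBS values have only an upper bound. A fold against such a group is a lower bound, here and for other genes the deposited intensity of the brighter group over the background bound, with no background correction. After LPS, Ccl2 was at least 1.73-fold higher and Ccl7 at least 1.76-fold higher. In LT, Ccl2 was at least 1.496-fold higher than in PBS and Ccl7 at least 1.58-fold higher. Their p-values against PBS are left out, since both probes passed the filter only through their LPS and LT arrays.

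Ccl6 and Ccl9, rodent chemokines made constitutively by myeloid cells, moved the opposite way and by a similar amount. Ccl6 read 2553 and 2363 on the PBS arrays, 1226, 1266 and 1159.96 on the LPS arrays, and 1063, 1348 and 1125 on the LT arrays. Every PBS array exceeded every LPS and LT array, and LPS and LT overlapped. The log2 change of Ccl6 was -1.06 ± 0.12 after LPS (2.08-fold lower, adjusted p = 1.2e-05) and -1.11 ± 0.12 in LT against PBS (adjusted p = 1.0e-05). Ccl9 read 6705 and 7348 on the PBS arrays, 3803, 3455 and 3356 on the LPS arrays, and 5006, 2985 and 4054 on the LT arrays. Here too PBS stood above all other arrays, and LT held both the highest and the lowest of the 6 arrays with LPS. The log2 change of Ccl9 was -1.0 ± 0.17 after LPS (2.01-fold lower, adjusted p = 0.00043) and -0.85 ± 0.17 in LT against PBS (adjusted p = 0.0018). Macrophage markers fell in the same comparisons, by a median log2 change of -1.41 after LPS and of -1.80 in LT against PBS, and their part in these falls was not tested.

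Ccl5, which attracts T cells, monocytes and eosinophils and is made by activated T and NK cells among others, was bright in every group and differed from the other members in its order of levels. Its probe read 8318 and 9119 on the PBS arrays, 9867, 9539.6 and 10227 on the LPS arrays, and 6524, 7434 and 6753 on the LT arrays. LPS was highest, PBS next and LT lowest, with no overlap between any of the groups. The neighbours PBS and LPS did not differ past the test (log2 change 0.18 ± 0.10, 95% confidence interval -0.03 to 0.40, adjusted p = 0.14). LT was below PBS by a log2 change of -0.34 ± 0.10 (adjusted p = 0.014), which was lost without PBS 3 (-0.27, adjusted p = 0.13) in a range of 0.0019 to 0.13 over all settings. Over the same arrays, all 6 tested T and NK cell markers fell after LPS (median log2 change -1.57), and their part in the level of Ccl5 was not tested.

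Ccr1, the receptor of Ccl3, Ccl5, Ccl6 and Ccl9, and Ccr2, the receptor of Ccl2 and Ccl7, gave no signal above background on any array. Ccr1 read 138 and 143 in PBS, 143, 133 and 161 in LPS, and 140.4, 142 and 135 in LT. Ccr2 read 127 and 129.8 in PBS, 136, 145 and 154 in LPS, and 139, 129 and 142 in LT. All of these values lie under the bound of 169, so these probes give only an upper limit, and no difference between groups was detectable. With no filter on dim probes, neither passed the test in any comparison, and the smallest adjusted p was that of Ccr2 for LPS against PBS (log2 change 0.34 ± 0.12, adjusted p = 0.052).

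The comparison of LT with LPS sets arrays of mice given HY209 after endotoxin against those of mice given endotoxin without it. Ccl3 and Ccl5 fell, and the other 6 probes did not pass the test. No member rose. Of all tested probes, 7.43% passed the test, 2.62% downwards and 4.81% upwards. The median log2 change of the 8 chemokine probes was -0.27, against -0.01 over all probes tested. LPS and LT arrays did not overlap for Ccl2, Ccl3 and Ccl5, as was the case for 27.6% of all tested probes.

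Ccl3 was 1.51-fold lower in LT than in LPS (log2 change -0.60 ± 0.10, 95% confidence interval -0.81 to -0.38, adjusted p = 0.0058), from 9527 ± 563 to 6339 ± 697. That fall ranked 45 from the largest among all probes. Its mean in LT stayed far above the 317 ± 7.36 of PBS. Ccl5 was 1.44-fold lower (-0.52 ± 0.09, 95% confidence interval -0.71 to -0.33, adjusted p = 0.0063), from 9878 ± 344 to 6904 ± 473, a fall that ranked 87. Its PBS mean was 8719 ± 566. Leaving out each array in turn, and the other settings tried, kept both falls past the test, with an adjusted p of at most 0.025 for Ccl3 and 0.036 for Ccl5. In the same comparison 5 of 10 tested macrophage markers fell (median log2 change of the list -0.39). None of 6 T and NK cell markers (median 0.20) and none of 9 neutrophil markers (median -0.04) passed the test. The part of these cells in the falls was not tested.

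For the remaining members the intervals of the difference between LT and LPS set what the arrays can show. Ccl2 changed by -0.28 ± 0.10 (95% confidence interval -0.51 to -0.05, adjusted p = 0.13), with all 3 LT arrays below all 3 LPS arrays. Ccl7 had -0.20 ± 0.10 (-0.42 to 0.02, adjusted p = 0.24). The brighter Ccl4 probe had -0.25 ± 0.13 (-0.54 to 0.03, adjusted p = 0.26) and the dimmer one -0.38 ± 0.18 (-0.77 to 0.02, adjusted p = 0.23). The SD of the brighter probe was 1769 in LT against 572 in LPS, so LT arrays varied more. Ccl6 had -0.06 ± 0.10 (-0.28 to 0.17, adjusted p = 0.80) and Ccl9 had 0.15 ± 0.16 (-0.19 to 0.50, adjusted p = 0.60). These intervals include no difference for Ccl4, Ccl6, Ccl7 and Ccl9 and do not show that the levels were alike.

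**Figure D2:**
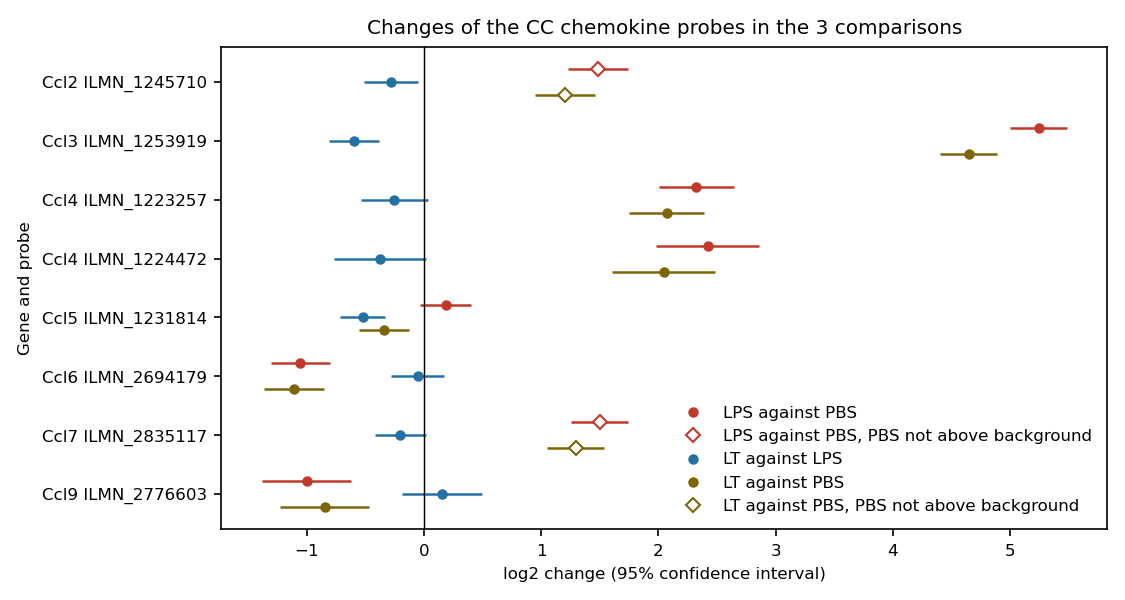
Log2 change with its 95% confidence interval for the 8 tested chemokine probes, in LPS against PBS, LT against LPS and LT against PBS, where open diamonds mark fitted values against PBS arrays not above background, which stand for bounds. Ccl3 lies farthest to the right in both comparisons with PBS (5.25 and 4.65), Ccl6 and Ccl9 lie near -1, and in LT against LPS Ccl3 (-0.60) and Ccl5 (-0.52) lie farthest to the left.

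LT against PBS gives the state of endotoxin-treated mice after HY209. It shares its PBS arrays with the first comparison and its LT arrays with the second. Of the 8 chemokine probes, 5 were higher and 3 (Ccl5, Ccl6 and Ccl9) lower, where 45.1% of all tested probes passed the test, 21.7% higher and 23.3% lower. Ccl2 and Ccl7, among the 5, had to differ through the filter. Among the 6 probes measured in both groups, 3 were higher and 3 lower. On all 8 chemokine probes, Ccl2 and Ccl7 included, the LT and PBS arrays did not overlap, against 63.1% of all tested probes.

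Along chromosome 11, neighbouring chemokine genes moved in different directions after LPS. In the first cluster, Ccl2 and Ccl7 and, farther on, Ccl12 and Ccl8 rose after LPS, while Ccl11, which lies between Ccl7 and Ccl12, had a log2 change of 0.21 ± 0.12 (adjusted p = 0.15) and Ccl1 was too dim to test. In the second cluster, Ccl9 and Ccl6 fell between Ccl5, which did not pass the test, and Ccl3 and Ccl4, which rose.

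**Figure D3:**
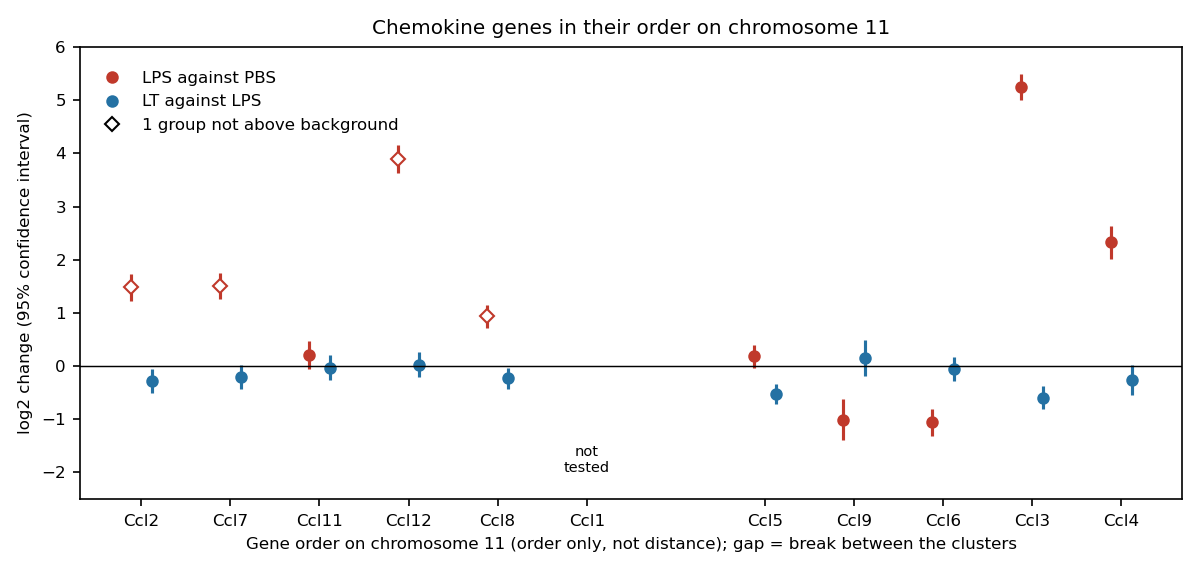
Log2 change with its 95% confidence interval for the chemokine genes of both clusters, in their order on chromosome 11 (order only), for LPS against PBS and LT against LPS, by the brightest probe of each gene, where open diamonds mark fitted values with a group not above background, which stand for bounds. Ccl9 (-1.0) and Ccl6 (-1.06) lie below 0 beside Ccl3 (5.25) and Ccl4 (2.32), and Ccl1 was not tested.

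Other genes of the CC system were taken from a list of chemokines, receptors and scavenging receptors, of which 28 had a probe and 17 had 1 that could be tested (21 probes). After LPS, 5 of the 21 probes rose and 12 fell, where 25.8% of all tested probes rose and 27.6% fell. For 7 of the 21, 1 of the groups had no array above background, and probes that passed the filter only through the group where they were high had to differ. Among the 14 measured in both groups, meaning at least 1 array of each above background, 2 rose and 8 fell. The second Ccl12 probe and Ackr1 are among these with only 1 such array in their lower group, so this count is not free of the filter. Against PBS, 5 were higher and 11 lower in LT (21.7% and 23.3% of all tested probes), with 2 higher and 9 lower among the 15 measured in both. There the second Ccl12 probe, Ccl21a and Ccl21b had only 1 array above background in their lower group. Between LT and LPS, 3 probes (both of Ccr6 and that of Ackr2) rose and 0 fell, against 4.81% and 2.62% of all tested probes.

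Among the ligands, Ccl12, another Ccr2 ligand in the mouse, rose from background to a clear signal after LPS. Its brighter probe read 163 and 153 on the PBS arrays, 1456, 1339.8 and 1441 on the LPS arrays, and 1564, 1245 and 1527 on the LT arrays. PBS lay wholly below the others, LPS and LT overlapped, and the rise after LPS was at least 8.36-fold. The p-value is left out, since this probe passed the filter only through its LPS and LT arrays. The second Ccl12 probe read 141 and 172 on the PBS arrays, 1 of them above background, and 738, 648 and 681 on the LPS arrays. Its fitted log2 change was 2.83 ± 0.16. The p-value is left out here too, since the PBS arrays alone would not have passed the filter. In LT against LPS the brighter probe changed by 0.03 ± 0.11 (95% confidence interval -0.20 to 0.26, adjusted p = 0.91). Ccl8, a ligand of Ccr8 in the mouse, was at least 1.27-fold higher after LPS, and Ccl17, a ligand of Ccr4, at least 1.16-fold higher, both at intensities near background. Ligands that fell after LPS were, with log2 changes for those measured in both groups, the eosinophil attractant Ccl24 (-1.53 ± 0.13), the Ccr10 ligand Ccl27a (-1.18 ± 0.14 on its brighter probe), the Ccr9 ligand Ccl25 (-0.61 ± 0.09 on its brighter probe, while the other had -0.17 ± 0.11, adjusted p = 0.21) and the lymphoid tissue chemokines Ccl21a (at least 1.26-fold lower) and Ccl21b (at least 1.14-fold lower). Ccl21a and Ccl21b are near-identical copies, and their probes may not tell them apart.

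Among the receptors, Ccr3, the eotaxin receptor of eosinophils, read 1360.4 and 1539 in PBS and lay below background on all LPS and LT arrays, which were at 150.5 to 154 and 137 to 150.4. It was at least 8.57-fold lower in LPS and in LT, with p-values left out because its probe passed the filter through PBS alone. Of the eosinophil and basophil markers beside it, 3 of 6 were tested and Ccr3 itself was the 1 that fell, while Siglecf, Epx and Mcpt8 were too dim. Ccrl2, an atypical receptor that binds chemerin and signals little itself, rose by 3.64 ± 0.14 after LPS (adjusted p = 2.4e-09), from 435 ± 33.5 to 4643 ± 251. Ccr7, the receptor of Ccl19 and Ccl21, fell by 0.64 on the log2 scale (adjusted p = 1.2e-04).

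Ccr6, the Ccl20 receptor of B cells and some T cells, fell after LPS and was higher in LT than in LPS. Its brighter probe read 2309 and 2225 on the PBS arrays, 551, 581 and 571 on the LPS arrays, and 1170.05, 921 and 1005 on the LT arrays. The 3 groups did not overlap and LT lay between. The log2 change was -2.14 ± 0.11 after LPS (adjusted p = 2.6e-08) and 0.94 ± 0.10 in LT against LPS (adjusted p = 5.7e-04). The second probe changed the same way by 0.43 ± 0.10 in LT against LPS (adjusted p = 0.026). That call was lost without LPS 1, LPS 3 or LT 1, with an adjusted p of up to 0.10. In the same arrays 6 of 6 tested B cell markers were lower after LPS and 4 of 6 higher in LT than in LPS. Their sum was 62213 and 63554 in PBS, 10908 to 11509.8 in LPS and 16686 to 18521 in LT, and their part in the change of Ccr6 was not tested.

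Of the 3 scavenging receptors tested, Ackr2 and Ackr1 fell after LPS and Ackr4 had a log2 change of 0.06 ± 0.13 (adjusted p = 0.74). Ackr2, which takes up and degrades inflammatory CC chemokines including Ccl2 to Ccl5, read 905 and 1006 on the PBS arrays, 289, 287 and 313 on the LPS arrays, and 439, 337 and 409.6 on the LT arrays. The groups did not overlap. Its log2 change was -1.96 ± 0.13 after LPS (adjusted p = 2.0e-07) and 0.51 ± 0.12 in LT against LPS (adjusted p = 0.026). The latter was lost without LPS 1, LPS 2, LT 1 or LT 3, with an adjusted p of up to 0.11. Ackr1, the Duffy antigen of red cells and venules, fell after LPS by a fitted 0.55 on the log2 scale, near background, with 1 LPS array above it. The p-value is left out, since the LPS arrays alone would not have passed the filter. In the same comparison all 3 tested erythroid markers and 5 of 6 endothelial markers fell, and in LT against LPS 3 of each list were higher. The erythroid sum over 4 markers was 79393 and 80937 in PBS, 25877 to 29008 in LPS and 45796 to 57702 in LT, and the endothelial sum over 6 was 8758 and 9695 in PBS, 1679 to 1761 in LPS and 2274 to 3482 in LT. Ackr1 itself did not pass the test in LT against LPS (-0.01 ± 0.10, adjusted p = 0.95), and none of its LT arrays was above background. The part of red cells and endothelium in the changes of both scavenging receptors was not tested.

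**Figure D4:**
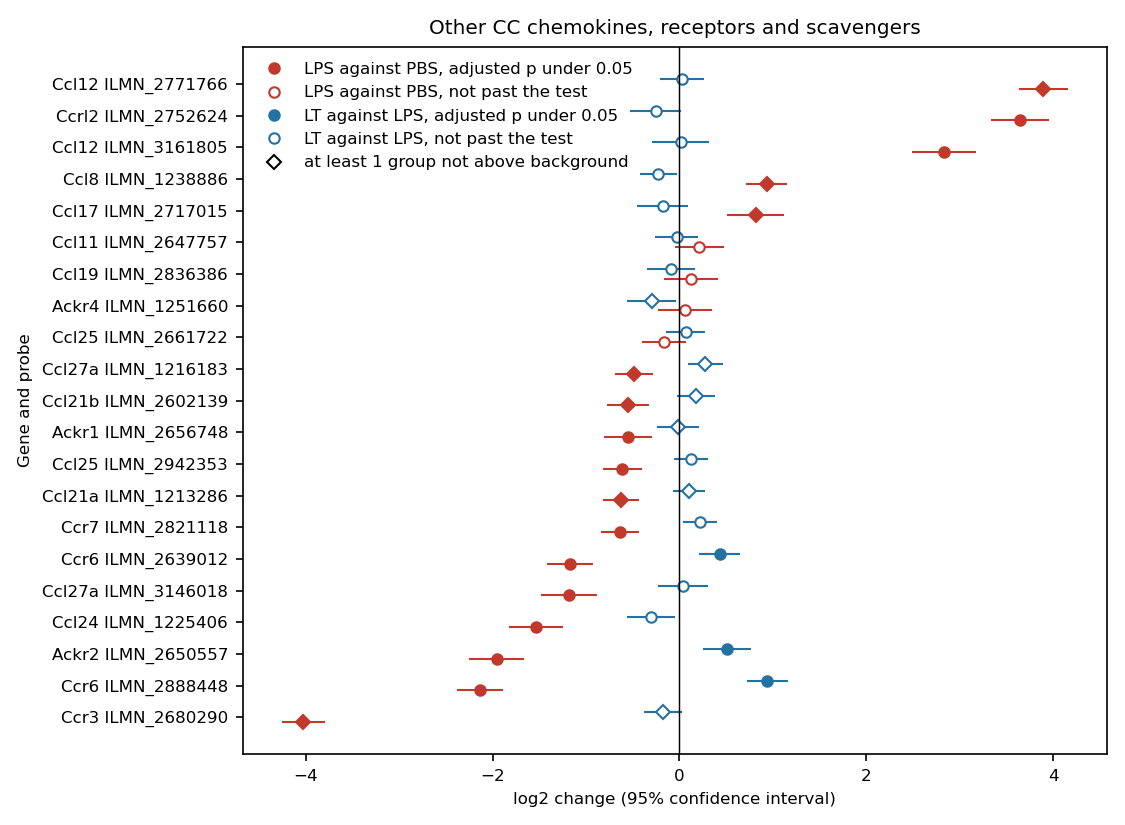
Log2 change with its 95% confidence interval for the 21 tested probes of other CC chemokines, receptors and scavengers, in LPS against PBS and LT against LPS, with filled symbols past an adjusted p of 0.05 and diamonds for fitted values with at least 1 group not above background, which give bounds at most and no order. The filling and interval of a diamond are not read as a test passed, since such a probe could pass the filter through its brighter group. Among the circles, Ccrl2 (3.64) lies farthest right and Ccr6 (-2.14) farthest left after LPS, and in LT against LPS the filled symbols are Ccr6 (0.94 and 0.43) and Ackr2 (0.51).

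The genes with the most similar pattern over the 8 arrays were found by Pearson's r on the log2 scale, as a description, since all points share the groups. For Ccl3 it was Dpep2, which encodes a membrane dipeptidase (r = 0.999), for Ccl4 the stress gene Gadd45b (0.998), for Ccl2 the adaptor Traf6 (0.997), for Ccl7 Lrg1, which encodes a secreted glycoprotein of granulocytes (0.996), for Ccl9 Hdhd5 (0.996) and for Ccl6 Fbxo27 (0.994). Such high values were common, since 951 probes for Ccl2, 1148 for Ccl3, 911 for Ccl4, 475 for Ccl6, 907 for Ccl7 and 150 for Ccl9 exceeded 0.95 of 13821 compared. For Ccl5, 2 probes did. The nearest was that of Fos, an immediate early transcription factor (r = 0.974), which read 6039 and 5923 in PBS, 9989.9, 10406 and 10529.96 in LPS and 2268, 2729.7 and 2394 in LT. Like Ccl5, Fos was highest in LPS, lower in PBS and lowest in LT.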

How the data were processed

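Per the file headers, the deposited table holds 1 intensity column for each of 8 arrays. The authors' values are on a linear scale without background subtraction, and the 8 columns share their quantiles, so they had been quantile normalized before they were deposited. The submitters' processing notes name GenomeStudio 2011.1 and R 2.15.0, with no role. A table of 16 columns whose names match no sample title was not used. Groups and numbers come from the titles (the description of PBS 3 numbers it 2).

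Values were corrected with normexp (offset 50), quantile normalized and put on a log2 scale in limma 3.58.1 (R 4.3.3). Background was read from the mode of all intensities (148), whose upper 5% bound is 169. Probes above it on at least 2 arrays were fitted together (lmFit and eBayes, a mean per group, two-sided), with Benjamini-Hochberg adjustment over all 14743 probes and a threshold of 0.05. Folds given as at least a value were taken on the deposited scale, a choice made after seeing the data, because bounds after background correction were larger (2.22 for Ccl2 after LPS). The fit was tested on simulated data. Precision is limited by the number of arrays, and the median standard error was 0.101 to 0.113.

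Probe symbols came from the platform annotation, and 0 of 23962 changed against RefSeq by Entrez identifier. The members and lists were chosen with earlier results of these data known. Named genes are the members, other CC family genes with a probe past the test in at least 1 comparison, the most similar gene of each member, and up to 3 markers per list, with undetected ones. Ccl11, Ccl1 and Ackr4, and markers beyond 3, were named after their values were seen, and Ly6g was named because it had no probe. Same-numbered arrays were checked for pairing. Residuals of 7 such pairs correlated from -0.21 to 0.33 and 2 exceeded 0.1, so the number was not used as a block. Those 2 were both pairs of LPS with LT (0.33 for number 2 and 0.28 for number 3, against 0.05 for number 1). A pairing in that comparison is therefore not excluded, and the fit with the block is given below. Alternatives covered background correction, scaling, filters, 1 probe per gene, the block, the groups fitted, the variance model and each array left out.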

Additional observations from a re-analysis of the deposited data

How the results depend on the processing

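The 2 to 3 arrays per group limit every value, and Ccl2, Ccl7, Ccl8, Ccl17, Ccr1 and Ccr2 lie near or below background, where a level has only a bound. Over all probes, LT against LPS was the comparison that moved most, from 1096 called probes to between 332 (without LT 1) and 1212 when an array was left out, with 457 without LPS 1, 720.0 without LPS 2 and 507 without LPS 3. The other CC family probes called there went from 3, all higher in LT, to between 1 and 3 when an array was left out. They went to 4, all higher, with a normexp offset of 16 and with a stricter filter. Without LPS 2 they were 2 higher and 1 lower, the lower one being Ccl24 (-0.45, adjusted p = 0.027, against -0.30 and 0.15 with all arrays). The 2 chemokine probes called in that comparison stayed 2 in every setting. The number as a replicate block gave 7, 2 and 8 chemokine probes for LPS against PBS, LT against LPS and LT against PBS, the same as without it, and 8097, 1433 and 6848 of all probes, and changed no other call of a member. Scaling to the 75th percentile could not differ much, since the deposited columns already share their quantiles. Of changes that did not pass the test in LT against LPS, some changed sign when an array was left out, over ranges of -0.16 to 0.02 for Ccl6, -0.02 to 0.36 for Ccl9, -0.10 to 0.07 for Ackr1, -0.04 to 0.14 and -0.07 to 0.13 for the Ccl12 probes, -0.01 to 0.13 for the dimmer Ccl25 probe and -0.05 to 0.17 for the brighter Ccl27a probe. Without background correction, fitted log2 changes of dim genes shrank, from 1.48 to 0.98 for Ccl2 after LPS. Without PBS 1, Ccl21b in LT against PBS had an adjusted p of 0.12, and the causes of these shifts were not tested.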
